A study of Arabidopsis thaliana with 45 samples.

Results

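The comparison described here is the RNA of shoots in which FIE was silenced against that of the wild type in Arabidopsis thaliana. It rests on 6 of the series' 45 libraries, 3 of the line amiR-fie-es and 3 of the wild type (Ctrl), chosen by their column names in the RNA count table, and covers all 32678 genes counted, of which 20046 passed a filter on low counts and were tested. The series itself profiles RNA and histone marks in lines with altered TOR kinase or altered FIE. It asks how these proteins bear on chromatin and gene expression.

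FIE is the WD40-repeat subunit that every form of Polycomb repressive complex 2 (PRC2) in Arabidopsis shares. PRC2 trimethylates histone H3 at the residue marked in H3K27me3, and genes under this mark are kept silent outside the organ or phase in which they act. In plants the complex is best known for holding floral genes, seed genes and meristem genes silent in leaves, and for silencing the flowering repressor FLC after cold.

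Ctrl was Col-0. The line amiR-fie-es carries an artificial microRNA against FIE, a small RNA designed to cut or block the FIE transcript, under an oestradiol-inducible system. Its plants received oestradiol in the medium, 10 mM as written in the labels, from the beginning of growth. The labels do not say whether Ctrl received oestradiol, so the inducer and the silencing cannot be told apart. Values of a further group are set beside these: GFP-FIE is the fie mutant complemented with wild-type FIE fused to GFP; the promoter of that transgene and the number of transgenic lines behind either line are not given in the sources used here. All 3 groups were grown on solid MS medium with sucrose, and the aerial part was taken after 2 weeks. Whether GFP-FIE received oestradiol is not said in the labels either. A further 3 RNA libraries of the same age, labelled SSTS/AAAA, come from a line with phosphosite-mutant FIE. They entered the filter, the scaling and the shared fit, but their values are not given. Nothing states that the libraries of a group came from separate cultures, so the p-values measure the spread between these libraries only. Whether the shoots had begun to bolt or flower is not stated either.

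Ctrl libraries held 28866845 to 29477868 counts in total, and amiR-fie-es libraries 30451345 to 34124557. Values are given as CPM, read counts divided by the scaled size of their library, and log2 fold changes carry their standard error with n = 3 libraries per group. The first principal component of all 12 RNA libraries, those of SSTS/AAAA included, held 62.1% of the variance. A few very abundant transcripts weighed less in amiR-fie-es, where the 10 most counted genes took 9.05% to 9.12% of all counts against 10.5% to 10.6% in Ctrl. As the material is bulk tissue, fewer cells of a type and less RNA per cell cannot be told apart in any result here.

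FIE transcript, the target, stood at 9.10, 8.79 and 8.81 CPM in the amiR-fie-es libraries and at 15.7, 18.3 and 18.6 CPM in Ctrl. The groups did not overlap, as was the case for 63.5% of all genes tested. About as much FIE RNA remained as was lost (log2 fold change -0.98 ± 0.07, edgeR adjusted p = 4.06e-16). In GFP-FIE the gene stood at 25.2, 27.6 and 23.8 CPM, above both other groups, and a count per gene does not separate reads of the transgene from those of the endogenous copy.

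Of the 20046 genes tested, 5868 rose (29.3%) and 6005 fell (30%) in amiR-fie-es at an adjusted p under 0.05, 59.2% in all. With scaling by library size only, a setting chosen after seeing the data, the median log2 fold change of all genes moved up by 0.192, and 10673 genes rose while 3674 fell, so that 74.4% of the calls were higher instead of 49.4%. Most called changes were small, with 3961 rises and 3446 falls under 0.5 on the log2 scale. At least 2-fold, 929 genes rose (4.63%) and 1053 fell (5.25%), 9.89% in all, and these are the counts the text leads with. Beyond 16-fold, 85 genes rose and 68 fell. The median log2 fold change over all genes was 0.01, so a list is read against that value. Its counts of called members are read against the shares of 29.3% and 30% over all genes tested.

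**Figure D1:**
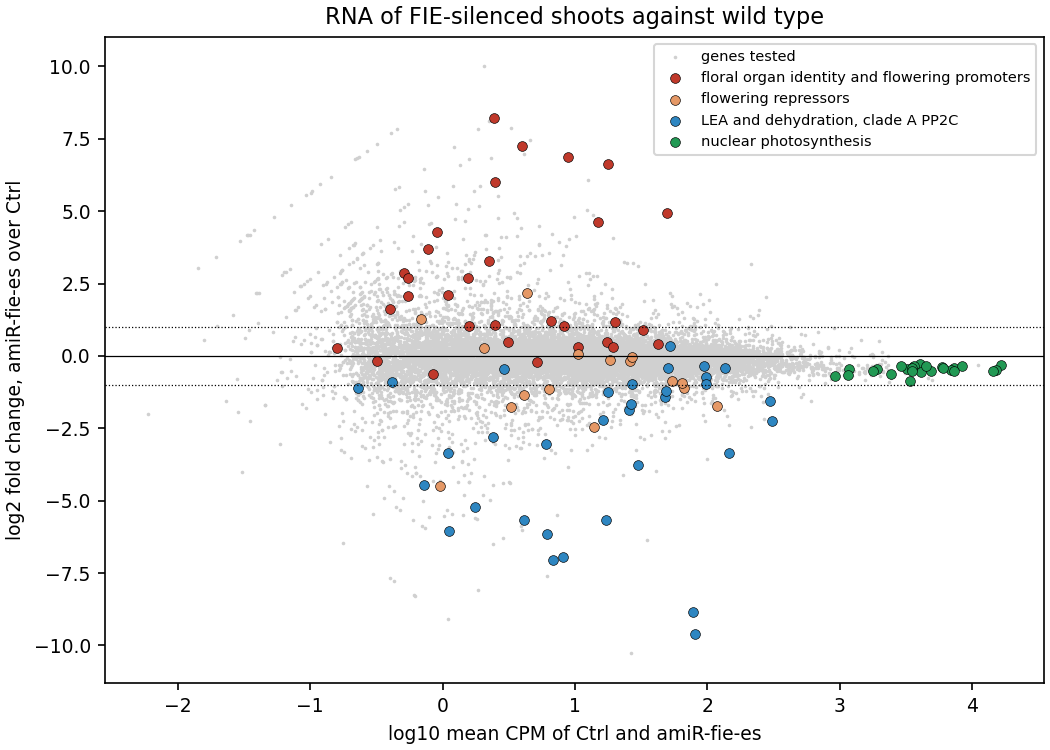
Each grey point is one of the genes tested, with the log10 of the mean CPM of both groups on the x axis and the log2 fold change of amiR-fie-es over Ctrl on the y axis; dotted lines mark 2-fold and 1 gene at 0 in both groups is not drawn. Floral and flowering-promoting genes (red) lie above 0 with few exceptions, LEA, dehydration and PP2C genes (blue) lie below with 1 exception, and the 27 photosynthesis genes (green) form a tight group of abundant transcripts just below 0.

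Rises were more frequent among genes low in Ctrl, and falls more frequent than rises among genes high in Ctrl. Among the 233 tested genes under 0.1 CPM in Ctrl 77.3% rose at least 2-fold, but these had passed the filter only through other groups, so that share is fixed in part by the filter. Between 0.1 and 1 CPM 18.6% rose and 9.59% fell at least 2-fold, and between 1 and 10 CPM 4.09% rose and 7.34% fell. The filter bears on the bin from 0.1 to 1 CPM as well, since genes at its low end passed only through other groups. The same limit holds for any gene list with members near 0 in Ctrl. Among the 1699 genes at 100 CPM or more 0.53% rose and 4.06% fell (median log2 fold change -0.18). The 5 nuclear chromosomes differed little, with 4.07% to 4.89% of their genes risen and 5.0% to 5.48% fallen at least 2-fold.

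Among the other PRC2 genes tested, MEA had the largest change. It encodes the PRC2 methyltransferase subunit that acts in the female gametophyte and the endosperm. MEA had 0, 0.0368 and 0.0363 CPM in Ctrl and 1.47, 1.40 and 1.5 CPM in amiR-fie-es. MEA RNA was thus near 0 in every Ctrl library and low but present in every amiR-fie-es library. With 2 counts in all of Ctrl and 150 in amiR-fie-es, the ratio was 60.3 (95% counting interval 16.4 to 502.6). CLF and SWN, the methyltransferases of the plant body, had log2 fold changes of 0.08 ± 0.06 (adjusted p = 0.269, but called higher at 0.15 without Ctrl replicate 1) and 0.20 ± 0.04 (adjusted p = 1.44e-05). Of the 9 PRC2 genes tested of 11 listed, 4 rose and 2 fell, the target FIE among the latter (median 0.09, or 7 and 1 with library-size scaling). Over all genes tested 59.2% were called, so the number of calls in this list is near that share.

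Among 9 genes of PRC1 and of readers of H3K27me3, 4 rose and 1 fell (median 0.12), against 8 and 0 with library-size scaling. EMF1, a plant-specific partner of PRC1, had the largest change of them. It stood at 36.5, 34.5 and 36.5 CPM in Ctrl and at 64.4, 60.4 and 59.4 CPM in amiR-fie-es (0.78 ± 0.04, adjusted p = 1.19e-20). RING1A and RING1B, its ubiquitin ligase partners, rose by 0.49 ± 0.08 and 0.44 ± 0.11. Of 9 demethylases of H3K27 and Trithorax-type activators, 3 rose and 1 fell (median -0.01, or 6 and 0 with library-size scaling), beside 29.3% and 30% of all genes tested. ULT1, a SAND-domain antagonist of Polycomb silencing, stood at 13.8, 14.2 and 13.0 CPM in Ctrl, at 26.8, 24.8 and 25.9 CPM in amiR-fie-es and at 25.8, 24 and 26.6 CPM in GFP-FIE. Both transgenic lines were therefore about equally above Ctrl for ULT1.

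Floral organ identity genes rose in the silenced shoots. Of 18 listed, 16 passed the filter and 14 of them rose, 13 at least 2-fold, with none falling and a median log2 fold change of 2.77. On average 5 of the 18 listed were under 0.1 CPM in Ctrl. Genes silent in Ctrl pass the filter only through a group where they are higher. The count of rises and the median are therefore fixed in part by the filter. Each class of organ identity factor took part. AP1 and AP2, which act in sepals and petals, rose by 3.68 ± 0.35 and 1.18 ± 0.06. AP3 and PI, the partners that specify petals and stamens, rose by 7.25 ± 0.25 and 4.63 ± 0.09.

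AP3 stood at 0.0359, 0.0736 and 0.0363 CPM in Ctrl and at 8.20, 7.88 and 7.85 CPM in amiR-fie-es. PI stood at 1.04, 1.33 and 1.09 CPM in Ctrl and at 27.9, 29.0 and 29.2 CPM in amiR-fie-es. AG, which specifies stamens and carpels, stood at 0.395, 0.479 and 0.182 CPM and at 34.6, 36.2 and 34.8 CPM. For each of these genes the silenced libraries lay close together and far above every Ctrl library.

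The carpel and ovule genes followed. SHP2, which acts in the carpel margins, had 0, 0.184 and 0.0363 CPM in Ctrl against 4.69, 4.70 and 5.33 CPM in amiR-fie-es (6.0 ± 0.29). STK, which acts in ovules, had 0.0718, 0.11 and 0.0727 CPM against 1.59, 1.89 and 1.67 CPM (4.28 ± 0.34). SEP3, a cofactor that joins the organ identity factors into complexes, stood at 94.4, 96.4 and 98.2 CPM against 2.91, 3.76 and 2.65 CPM in Ctrl. The groups did not overlap for any of them, as for 63.5% of all genes tested. CRC, a carpel and nectary gene (0.26), and UFO, an F-box protein of the floral meristem (-0.17), did not pass the test.

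Genes that promote flowering also rose, 13 of 15 tested (18 listed) with none falling and a median of 1.04. On average 4 of the 18 listed were under 0.1 CPM in Ctrl, so the filter fixes these values in part as well. FT, the mobile signal made in leaf veins, stood at 0.287, 0.0736 and 0.0727 CPM in Ctrl and at 18.1, 16.8 and 18 CPM in amiR-fie-es (6.88 ± 0.17). AGL17, a MADS-box promoter of flowering, had 1 count in all of Ctrl and 499 in amiR-fie-es. LFY, the regulator of floral meristem identity, stood at 0.467, 0.368 and 0.400 CPM against 1.71, 1.5 and 2.11 CPM (2.1 ± 0.26). All of these were higher in 3 of 3 silenced libraries than in any Ctrl library. Over all genes tested, 63.5% had no overlap between the groups in one direction or the other.

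Some other genes of the same pathway moved less. SOC1, an integrator of flowering signals, rose from a mean of 36.1 to 48.1 CPM (0.41 ± 0.04, adjusted p = 6.63e-11). AGL24, its partner, rose from 22.8 to 42.8 CPM (0.91 ± 0.05). SPL4 and SPL5, targets of miR156 that mark the adult phase, rose by 1.04 ± 0.08 and 1.21 ± 0.09. CO, the daylength sensor upstream of FT, overlapped between the groups at 0.575, 1.40 and 1.09 CPM in Ctrl and 0.541, 0.824 and 0.629 CPM in amiR-fie-es (-0.62, adjusted p = 0.0735); it was called lower without Ctrl replicate 1 (-0.90) or amiR-fie-es replicate 2 (-0.79).

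Repressors of flowering went the other way. Of 16 tested of 17 listed, 11 fell and 2 rose, with a median of -0.91; with library-size scaling 9 fell and 5 rose. TEM2, which represses FT in young leaves, stood at 173, 187 and 187 CPM in Ctrl and at 58.1, 51.7 and 54.2 CPM in amiR-fie-es (-1.74 ± 0.03, adjusted p = 1.06e-36). SNZ, an AP2-like target of miR172, stood at 24, 23.4 and 22.9 CPM against 4.0, 4.55 and 4.21 CPM (-2.46 ± 0.07). In both cases the groups were well apart.

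Of the other AP2-like repressors, SMZ, TOE1 and TOE3 fell by 1.35 ± 0.13, 0.94 ± 0.03 and 1.14 ± 0.10, while TOE2 hardly moved (-0.14). SVP, a MADS-box repressor that acts with FLC, fell by 1.09 ± 0.03. BFT, a relative of FT that delays flowering, had 2.16, 1.58 and 1.74 CPM in Ctrl and 0.0901, 0.153 and 0 CPM in amiR-fie-es. FLC and TFL1 were the 2 members that rose. FLC stood at 1.33, 1.80 and 1.53 CPM in Ctrl and at 6.67, 7.14 and 7.41 CPM in amiR-fie-es (2.19 ± 0.13, adjusted p = 3.83e-19), so the best known repressor rose while most of the list fell.

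**Figure D2:**
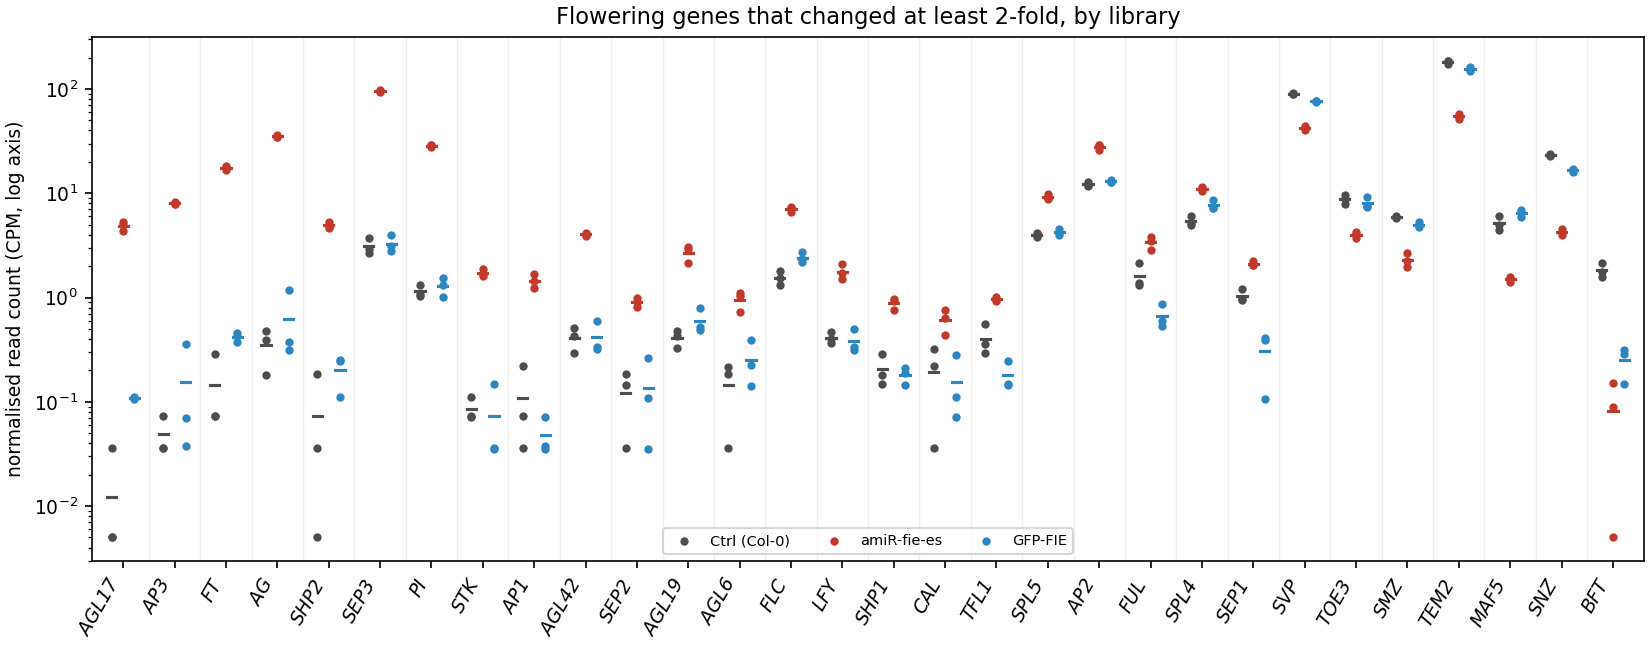
CPM per library (log axis) of the floral organ identity, flowering-promoting and flowering-repressing genes that changed at least 2-fold, ordered by fold change, with Ctrl in grey, amiR-fie-es in red and GFP-FIE in blue; short lines are group means and 0 is drawn at 0.005. The GFP-FIE points lie near the Ctrl points for most of these genes, while those of amiR-fie-es stand apart.

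The same fit gives GFP-FIE beside these values. It shares the Ctrl libraries with the comparison above, so the values are set side by side and no overlap is counted. In GFP-FIE against Ctrl the median log2 fold change was 0.09 for floral organ identity, 0.01 for flowering promoters and -0.11 for flowering repressors. In amiR-fie-es against GFP-FIE the medians were 2.77, 0.92 and -0.86. AG was at 1.18, 0.317 and 0.374 CPM in GFP-FIE, FT at 0.430, 0.458 and 0.374 CPM and TEM2 at 149, 162 and 155 CPM. FT was called higher in GFP-FIE than in Ctrl (1.51, adjusted p = 0.0057), yet remained far below its level in amiR-fie-es.

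Of 17 tested meristem, boundary and bud genes (19 listed), 8 rose and 2 fell (median 0.49). On average 3 of the 19 listed were under 0.1 CPM in Ctrl, so here too the filter fixes these values in part. BRC1, a TCP factor that arrests bud growth, stood at 0.251, 0.147 and 0.254 CPM in Ctrl and at 3.03, 4.64 and 4.24 CPM in amiR-fie-es (4.16 ± 0.24). HB40 and HB21, homeodomain factors known to act downstream of BRC1, rose as well. HB40 stood at 0.0718, 0 and 0.109 CPM against 8.17, 8.21 and 8.21 CPM, and HB21 at 0.503, 0.11 and 0.218 CPM against 2.67, 2.99 and 2.93 CPM. HB53, the third of that group, overlapped between the groups (0.52 ± 0.49, adjusted p = 0.366).

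RAX1, a MYB factor of axillary meristem formation, rose by 2.76 ± 0.36, and LAS, a GRAS factor of the same process, fell by 1.90 ± 0.40. LOB, a boundary gene, rose from 4.36 to 8.79 CPM (1.01 ± 0.09). STM, which maintains the shoot meristem, had a log2 fold change of 0.23, a call that was lost without Ctrl replicate 1 (0.20) or 3 (0.23) and without amiR-fie-es replicate 3 (0.16). CLV1, the receptor kinase that limits the stem cell pool, rose by 0.54 ± 0.03. The boundary genes CUC1, CUC2 and CUC3 did not pass the test. WUS and CLV3, the stem cell pair, had 7 and 6 counts in Ctrl and 15 and 4 in amiR-fie-es and were not tested. Of 11 leaf polarity genes, 6 rose and 3 fell (median 0.10, or 8 and 2 with library-size scaling). The abaxial factor KAN1 rose by 1.09 ± 0.07 and the adaxial factor PHB fell by 0.60 ± 0.03.

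Most genes that mark seeds, endosperm, pollen or roots did not pass the filter on low counts in these shoots. Of 10 embryo regulators 3 passed the filter, and 2 of them fell. LEC1, LEC2, FUS3 and ABI3, the master regulators of seed maturation, had 1, 26, 10 and 7 counts in Ctrl and 1, 22, 3 and 7 in amiR-fie-es. Of 13 seed storage genes 2 were tested, of 7 endosperm genes 1 and of 9 pollen and tapetum genes 1, and none of these passed the test. Of 10 root markers only SCR and SHR were tested, both of which also act in leaf vasculature, and both were called lower, though neither was with library-size scaling. The root hair genes RHD6, EXPA7 and EXPA18 had 5, 1 and 0 counts in Ctrl and 7, 2 and 0 in amiR-fie-es, so RNA of root hairs was near 0 in both groups.

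The summed level of each marker list was taken per library. Floral organ identity genes summed to 31.7 to 36.4 CPM per Ctrl library, 229 to 232 CPM per amiR-fie-es library and 35.4 to 36.5 CPM per GFP-FIE library. Pollen and tapetum genes summed to 7.44 to 8.19 CPM in Ctrl and 7.99 to 8.34 CPM in amiR-fie-es, and root markers to 82.1 to 83.7 and 74.1 to 76.5 CPM. The tapetum factors DYT1 and MS1 had 0 and 1 counts in Ctrl and 0 and 0 in amiR-fie-es. The floral organ sums were thus apart and the pollen sums overlapped, and whether floral buds were part of the tissue was not tested. The 4 guard cell and phloem markers summed to 219 to 231 CPM in Ctrl and 152 to 154 CPM in amiR-fie-es. KAT1, the potassium channel of guard cells, fell by 2.02 ± 0.06 and SUC2, the phloem sucrose carrier, by 0.47 ± 0.02.

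Some of the deepest falls were in genes of dehydration tolerance. LEA (late embryogenesis abundant) proteins and their relatives protect cells that dry out and are induced by abscisic acid (ABA). Of 25 tested of 26 listed, 23 fell and 1 rose (median -2.26; 21 and 1 with library-size scaling). LEA7 stood at 170, 164 and 147 CPM in Ctrl and at 0.240, 0.214 and 0.164 CPM in amiR-fie-es. LTI65, also known as RD29B, stood at 164, 154 and 144 CPM against 0.451, 0.305 and 0.246 CPM. These are among the most separated genes of the data set, with log2 fold changes of -9.59 ± 0.10 and -8.84 ± 0.09.

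The dehydrin RAB18 stood at 279, 266 and 245 CPM against 26, 25.5 and 25.1 CPM (-3.37 ± 0.04). GolS2, which makes the protective sugar galactinol, stood at 12.7, 11.1 and 12.5 CPM against 0.210, 0.183 and 0.109 CPM (-6.15 ± 0.19). P5CS1, the first enzyme of proline synthesis, fell by 1.56 ± 0.03. The member that rose was GolS1 (0.36 ± 0.04), a galactinol synthase that heat and drought induce.

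The ABA pathway itself changed at several steps. NCED3, the rate-limiting enzyme of ABA synthesis under drought, stood at 12.7, 13.4 and 12.7 CPM in Ctrl and at 1.23, 1.40 and 1.2 CPM in amiR-fie-es (-3.34 ± 0.12). The ABA hydroxylases CYP707A2, CYP707A3 and CYP707A4, which break the hormone down, fell by 0.83 ± 0.08, 2.22 ± 0.15 and 2.14 ± 0.22. BGLU18, which releases ABA from its glucose ester, rose from 128 to 317 CPM (1.3 ± 0.02). Of 10 tested genes of ABA synthesis and breakdown, 3 rose and 6 fell (median -0.71). AAO3, an aldehyde oxidase of synthesis, and CYP707A1, another hydroxylase, were the other members called higher (0.25 and 0.30). The call of CYP707A1, whose libraries overlapped, was lost without Ctrl replicate 2 or 3 (0.18 and 0.29) and without amiR-fie-es replicate 1 (0.22).

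Clade A PP2C phosphatases, which block ABA signalling and are themselves induced by it, all fell, 8 of 8 tested of 9 listed (median -1.23). HAI1 stood at 62.5, 54.9 and 50.6 CPM in Ctrl against 3.43, 3.97 and 4.92 CPM in amiR-fie-es (-3.76 ± 0.08), and HAI2 and HAI3 fell by 5.65 ± 0.23 and 5.22 ± 0.33. ABI1 and ABI2 fell by 1.22 ± 0.04 and 1.25 ± 0.06. The receptors differed among themselves. PYL6 stood at 1.36, 0.589 and 0.981 CPM against 12.6, 10.8 and 11.7 CPM (3.57 ± 0.15), and PYL4 and PYL5 rose by 1.06 ± 0.03 and 1.02 ± 0.05, while PYL2 fell by 0.59 ± 0.12 and PYL1 did not pass the test (0.09).

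Of the ABF transcription factors that read the signal in leaves, ABF2, ABF3 and ABF4 fell and ABF1 did not pass the test (-0.05). ABF3 stood at 152, 147 and 146 CPM in Ctrl against 35.1, 35.2 and 37.4 CPM in amiR-fie-es (-2.05 ± 0.03), and ABF2 and ABF4 fell by 0.97 ± 0.05 and 0.68 ± 0.04 on the log2 scale. ABI5, the factor of seeds and germination, rose from 0.146 to 0.783 CPM. Of 14 receptors and signalling genes, 6 rose and 5 fell (median 0.10; 8 and 4 with library-size scaling). Of 4 tested cold regulators 3 fell, CBF2 among them (-2.44 ± 0.40); with library-size scaling 1 fell and 1 rose.

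**Figure D3:**
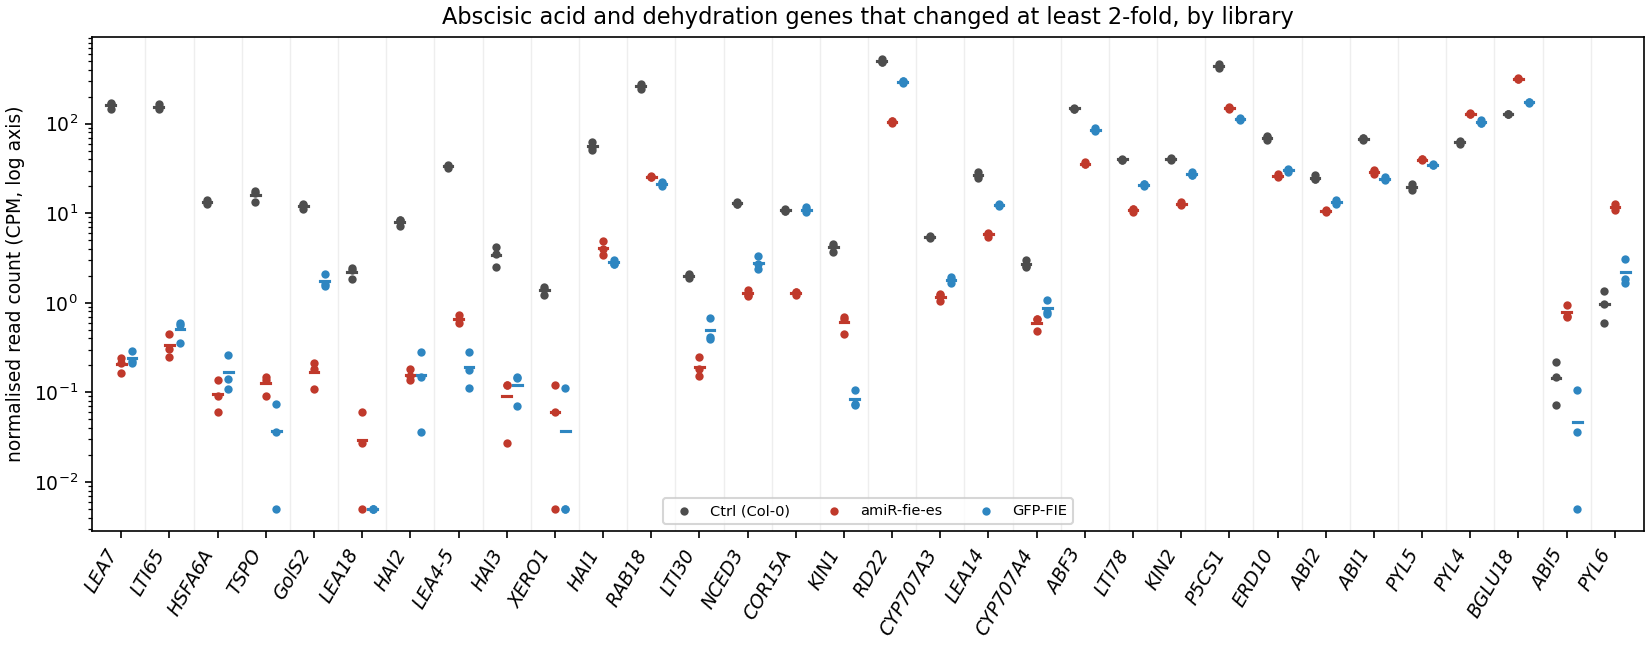
CPM per library (log axis) of the LEA, PP2C and ABA genes that changed at least 2-fold, ordered by fold change, in Ctrl (grey), amiR-fie-es (red) and GFP-FIE (blue); lines are group means and 0 is drawn at 0.005. For most of these genes GFP-FIE lies with amiR-fie-es and away from Ctrl, with COR15A at the Ctrl level and GolS2, LTI78, KIN2, RD22 and ABF3 among those between the groups.

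For this group GFP-FIE was low as well. LEA7 stood at 0.287, 0.211 and 0.224 CPM there, LTI65 at 0.359, 0.599 and 0.561 CPM and HAI1 at 2.73, 2.71 and 3.03 CPM. The median of the LEA list was -1.55 in GFP-FIE against Ctrl and -0.20 in amiR-fie-es against GFP-FIE, and that of the PP2C list -1.2 and -0.04. The FIE count of GFP-FIE, above that of Ctrl, does not separate reads of the transgene from those of the endogenous copy. Why both lines were below Ctrl for these lists was not tested. A few members differed between the lines themselves. COR15A, a chloroplast LEA protein, stood at 10.3, 11 and 11.6 CPM in GFP-FIE, at the Ctrl level (-3.09 in amiR-fie-es against GFP-FIE), GolS2 at 1.61, 2.08 and 1.53 CPM (-3.37) and RD22 at 286, 297 and 302 CPM (-1.49).

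Over the 929 genes that rose at least 2-fold against Ctrl the median log2 fold change was 1.68, beside 0.40 in GFP-FIE against Ctrl and 1.40 in amiR-fie-es against GFP-FIE. Over the 1053 that fell it was -1.45, beside -0.40 and -1.10. In GFP-FIE against Ctrl, 163 genes rose (0.813%) and 393 fell (1.96%) at least 2-fold, and in amiR-fie-es against GFP-FIE 875 rose (4.36%) and 768 fell (3.83%).

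Nuclear genes of photosynthesis fell together and by a narrow margin. All 27 listed were tested and all fell, also with library-size scaling, with a median of -0.46 (-0.27 with that scaling). RCA, the activase of Rubisco, stood at 16812, 16930 and 17008 CPM in Ctrl and at 11808, 11833 and 11888 CPM in amiR-fie-es (-0.51 ± 0.01). SBPASE and PRK of the Calvin cycle fell by 0.65 ± 0.02 and 0.53 ± 0.01, and the antenna protein LHCB6 by 0.56 ± 0.02. The list's median in GFP-FIE against Ctrl was 0.13. RBCS and LHCB genes are near copies of each other, and the rule for reads that match more than 1 of them is not given, so values of single members are uncertain. Beyond the list, CA1, a chloroplast carbonic anhydrase, and GLDP1, a subunit of photorespiratory glycine decarboxylase, fell by 0.84 ± 0.01 and 0.78 ± 0.02. Chloroplast-encoded genes took 1.01% to 1.09% of counts in Ctrl and 0.780% to 0.824% in amiR-fie-es.

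Flavonoid genes fell too, 7 of 11 tested (14 listed) with 1 rising and a median of -1.09. CHS, the entry enzyme, stood at 360, 353 and 361 CPM in Ctrl and at 63.5, 65.1 and 65.8 CPM in amiR-fie-es (-2.46 ± 0.02). The late anthocyanin enzymes DFR, LDOX and UF3GT fell by 2.71 ± 0.09, 2.18 ± 0.09 and 2.14 ± 0.21, and TT8, a bHLH factor that drives them, by 1.29 ± 0.33. In GFP-FIE, DFR stood at 18.9, 21.8 and 19.4 CPM, slightly above the 16.7, 16.8 and 18.3 CPM of Ctrl, and CHS at 268, 266 and 263 CPM. The falls of DFR and LDOX against Ctrl were thus not seen in GFP-FIE.

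Genes of wax and cutin, the layers on the epidermis, rose in 12 of 14 and fell in 2 (median 0.35; 13 and 0 with library-size scaling). CER4, a fatty acyl reductase that makes wax alcohols, stood at 0.144, 0.147 and 0.0363 CPM in Ctrl and at 4.84, 5.34 and 5.31 CPM in amiR-fie-es (5.51 ± 0.27). WSD1, a wax ester synthase, and CYP77A6, a cutin hydroxylase, rose by 0.94 ± 0.10 and 0.89 ± 0.06. Apart from CER4 and the very low WIN1 and MAH1, every change in this list was under 2-fold.

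Jasmonate genes were called in both directions. Of 13 tested of 15 listed, 8 rose and 4 fell (median 0.65). The median was 0.59 in GFP-FIE against Ctrl and 0.64 in amiR-fie-es against GFP-FIE. Summed, the list held 617 to 625 CPM in Ctrl, 712 to 720 CPM in amiR-fie-es and 809 to 829 CPM in GFP-FIE. The early plastid enzymes LOX2, AOS and AOC2 fell by 1.5 ± 0.03, 0.71 ± 0.03 and 0.89 ± 0.05. Their relatives LOX3 and AOC1 rose by 0.65 ± 0.06 and 0.25. OPR3, the peroxisomal reductase that follows them, rose from 25.7 to 82.9 CPM (1.69 ± 0.04). VSP2, a storage protein that jasmonate induces, stood at 33.3, 36.5 and 35.3 CPM in Ctrl and at 199, 195 and 202 CPM in amiR-fie-es. VSP1 rose by 4.08 ± 0.08 and the repressor JAZ10 by 1.97 ± 0.07. CORI3, another jasmonate-induced gene, fell by 1.40 ± 0.07.

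**Figure D4:**
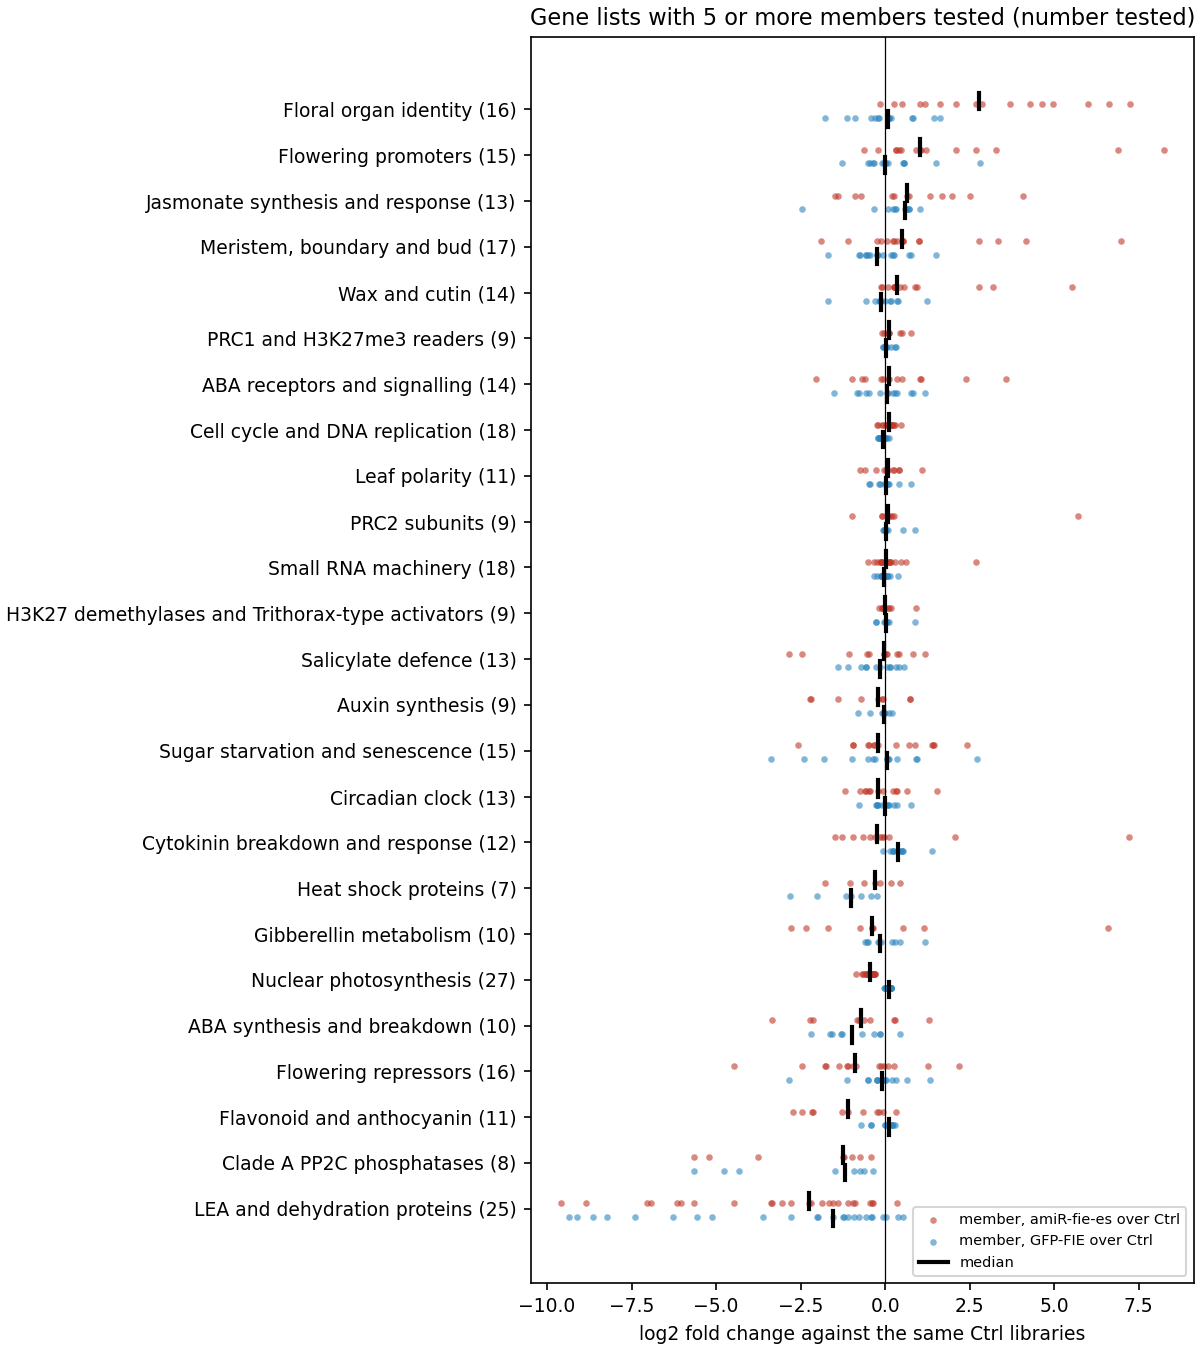
Log2 fold change of each tested member of the lists with 5 or more members tested, for amiR-fie-es over Ctrl (red) and GFP-FIE over the same Ctrl libraries (blue), with black bars at the medians. Floral organ identity and flowering promoters have medians of 2.77 and 1.04 in amiR-fie-es and of 0.09 and 0.01 in GFP-FIE, while the LEA and PP2C lists are low in both.

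Genes of other growth hormones changed by single members. Of 12 tested cytokinin genes 3 rose and 6 fell (median -0.23; 3 and 4 with library-size scaling). CKX3, an enzyme that degrades cytokinin, stood at 0, 0.0368 and 0.109 CPM in Ctrl and at 7.78, 8.00 and 7.44 CPM in amiR-fie-es (7.20 ± 0.29). CKX1 rose by 2.07 ± 0.15, and the response regulators ARR4 and ARR15 fell by 0.65 ± 0.03 and 1.28 ± 0.11. The degrading enzymes did not move as one, since CKX4 and CKX6 fell by 1.47 ± 0.22 and 0.96 ± 0.11.

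Of 10 tested gibberellin genes 3 rose and 4 fell (median -0.40). GA3OX1, which makes the active hormone, stood at 29.5, 25.5 and 24.4 CPM in Ctrl against 8.80, 7.21 and 8.56 CPM in amiR-fie-es (-1.69 ± 0.07). CYP714A1, a gibberellin-inactivating enzyme, had 2 counts in Ctrl and 278 in amiR-fie-es, a ratio of 111.8 (95% counting interval 30.7 to 928). Of 9 tested auxin synthesis genes 1 rose and 5 fell (median -0.21; 2 and 4 with library-size scaling). YUC5 and YUC8, flavin monooxygenases of auxin synthesis, fell by 2.24 ± 0.27 and 1.41 ± 0.23.

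Every one of the 13 tested clock genes was called, 5 higher and 8 lower (6 and 6 with library-size scaling). The morning genes CCA1 and LHY fell by 0.49 ± 0.02 and 0.56 ± 0.02 and PRR9 by 1.18 ± 0.06. The evening genes TOC1 and LUX rose by 0.36 ± 0.07 and 0.64 ± 0.10. In GFP-FIE against Ctrl, CCA1 and LHY were lower by less (-0.24 and -0.21), and TOC1 was at 0.09 (adjusted p = 0.42). The hour of harvest is not stated in the labels. Of 18 cell cycle and DNA replication genes 8 rose and 3 fell (median 0.10, or 13 and 0 with library-size scaling), and all changes were under 2-fold. The share called in either direction was near the 59.2% of all genes tested.

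Switches between near silence and expression were counted without a fitted fold change. In 18 genes all Ctrl libraries were under 0.1 CPM and all amiR-fie-es libraries at 1 CPM or more, and in 18 others the reverse held. Those switched on included AP3, AGL17, MEA and CYP714A1 as well as TLP5, a tubby-like protein, RNS1, an extracellular ribonuclease, and CHR34, a chromatin remodelling ATPase. The gene AT1G66290 had no count in Ctrl and 4.66, 3.11 and 4.57 CPM in amiR-fie-es, at least 114-fold higher with a floor of 3 counts over the group. In GFP-FIE 3 of the 18 were under 0.1 CPM in all libraries and 0 were at 1 CPM or more in all. The median of their GFP-FIE means was 0.0954 CPM. Several exceeded 0.1 CPM in GFP-FIE replicate 1 only, as did AP3 (0.359, 0.0705 and 0.0374 CPM).

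Those switched off included LEA18 of the LEA list, SOM, a zinc finger repressor of germination, and GASA3, a gibberellin-regulated peptide. GASA3 had 2.59, 2.03 and 1.96 CPM in Ctrl and no count in amiR-fie-es, at least 75-fold lower, and no count in GFP-FIE. AT3G17520 had the deepest fall of all, from 58.4, 53.2 and 48.2 CPM to 0.0300, 0.0611 and 0.0273 CPM. In GFP-FIE 8 of these 18 were under 0.1 CPM in all libraries and 2 were at 1 CPM or more in all.

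Among the 10 genes that gained the most CPM, DELTA-TIP, an aquaporin of the vacuole that overlaps other annotated genes, and UBQ10, a polyubiquitin gene, rose by 0.52 ± 0.02 and 0.57 ± 0.02. In GFP-FIE against Ctrl, DELTA-TIP and UBQ10 stood at 0.45 and -0.02. Others of the 10 genes changed by more. XTH24, a xyloglucan endotransglucosylase of the cell wall, stood at 41.0, 44.3 and 43.7 CPM in Ctrl and at 396, 387 and 371 CPM in amiR-fie-es (3.16 ± 0.03), with a mean of 87.4 CPM in GFP-FIE. GASA1 stood at 108, 112 and 105 CPM against 446, 451 and 437 CPM (2.04 ± 0.02). NIA1, a nitrate reductase, stood at 126, 121 and 118 CPM against 373, 367 and 367 CPM (1.6 ± 0.02). All were far outside the spread of either group. BXL1, a cell wall xylosidase, and CAT3, a catalase, rose by 0.96 ± 0.02 and 0.82 ± 0.02, beside 0.47 and 0.17 in GFP-FIE against Ctrl.

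The H3K27me3 peak lists of the same lines and age, 3 per group, show where the mark stood. Peaks covered 6047387 to 6680990 bp per library in Ctrl and 859029 to 910734 bp in amiR-fie-es. These lengths move with how much was called, and read depth is unknown from the lists. A gene was counted as marked in a library where peaks covered at least 200 bp of it. By that rule 2830 genes had a peak in 3 of 3 Ctrl and 0 of 3 amiR-fie-es libraries, 949 had one in all 6, and 25640 had one in none. Another 8 had one in 3 of 3 amiR-fie-es and 0 of 3 Ctrl libraries, and 2485 had other mixtures. Of the 1123 tested genes with such mixtures, 15.8% rose and 12.7% fell at least 2-fold. Both sets are left out of the classes compared below.

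Of the 1184 tested genes that had the peak in Ctrl alone, 21.7% rose and 13.9% fell at least 2-fold, beside 2.33% and 3.75% of the 17099 without a peak and 4.67% and 5.2% of all genes placed. The 465 genes with a peak in all 6 libraries were close to the first class, with 20.9% risen and 18.1% fallen. Over all levels, both marked classes thus held larger shares of risen and of fallen genes than the class without a peak. The shares depend on the level in Ctrl, as marked genes are low. Under 1 CPM in Ctrl, 37.8%, 47.5% and 14.5% rose in the 3 classes, while 8.71%, 9.49% and 8.39% fell, which is nearly alike. From 1 to 10 CPM 14.1%, 11.3% and 2.56% rose and 16.1%, 28.0% and 5.16% fell. At 10 CPM or more 4.71%, 0.826% and 0.619% rose and 20.0%, 14.0% and 2.44% fell. The shares under 1 CPM are fixed in part by the filter, which genes silent in Ctrl pass only through a group where they are higher, and which left 1184 of 2830, 465 of 949 and 17099 of 25640 genes of the classes. Read the other way, 42.8% of the risen and 62.1% of the fallen genes had no peak in any library, against 89.6% of the rest.

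**Figure D5:**
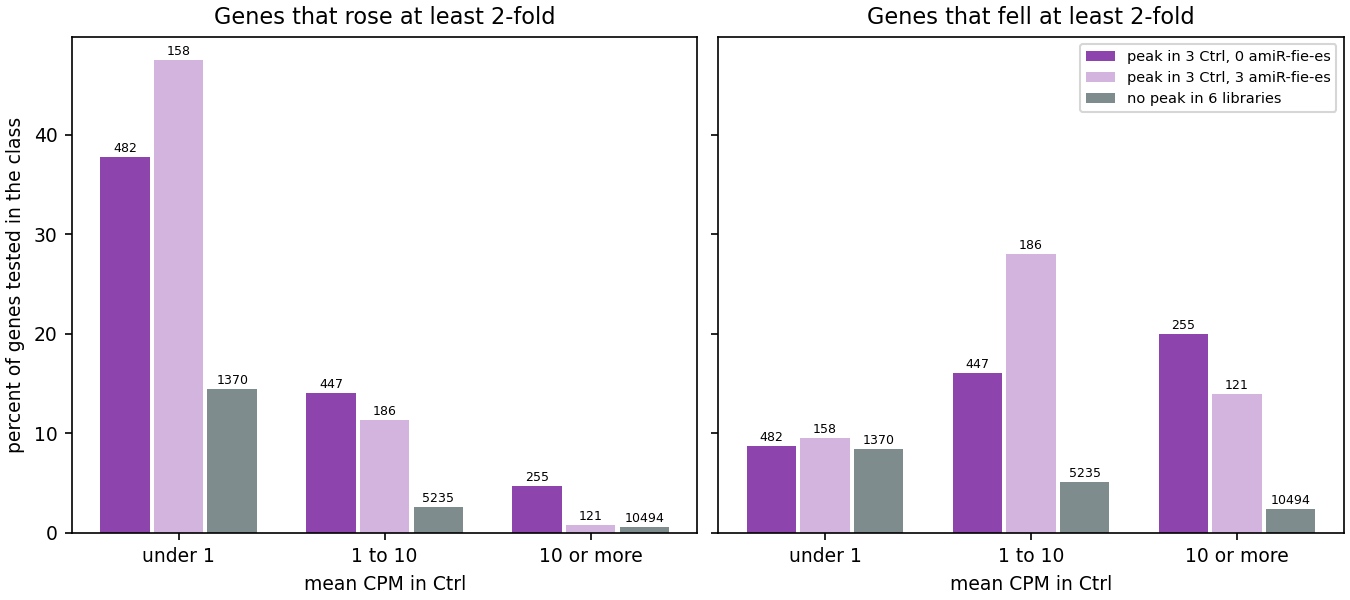
Percent of tested genes that rose (left) or fell (right) at least 2-fold, by mean CPM in Ctrl and by H3K27me3 class; numbers above the bars are genes tested. Under 1 CPM in Ctrl the classes differ for rises (37.8% and 47.5% against 14.5%, shares that the filter on low counts fixes in part). Falls there are nearly alike (8.71% and 9.49% against 8.39%). From 1 to 10 CPM they differ for rises (14.1% and 11.3% against 2.56%) and for falls (16.1% and 28.0% against 5.16%). At 10 CPM or more falls differ (20.0% and 14.0% against 2.44%), and rises are at 4.71% and 0.826% against 0.619%.

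Single genes span these classes. In AG peaks covered 1780, 1659 and 1240 bp in Ctrl and 0 bp in amiR-fie-es, and in FT at least 882 bp in each Ctrl library and 0 bp in amiR-fie-es. AP3 kept shorter peaks, with 2100, 1996 and 1980 bp in Ctrl and 832, 660 and 626 bp in amiR-fie-es. LTI65 had 1610, 1696 and 1486 bp in Ctrl and 0 bp in amiR-fie-es although its RNA fell. RAB18 had 959, 1027 and 1005 bp against 938, 861 and 773 bp. TEM2, NCED3, XTH24 and KAT1 had no peak in any library.

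Of the floral organ identity list 17 of 18 genes had a peak in all Ctrl libraries and 3 of them had none in amiR-fie-es. Of the 15 of these that were tested 13 rose. Of the LEA list 13 of 26 had such a peak, and 11 of the 12 tested fell, as did 10 of the 11 tested genes with no peak. Several of the most abundant photosynthesis genes also carried called peaks, RBCS1A with 837, 808 and 341 bp in Ctrl and 841, 851 and 857 bp in amiR-fie-es. How far peaks over genes with such high RNA reflect the mark was not tested.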

How the data were processed

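RNA of the aerial part of seedlings was sequenced in 4 genotypes with 3 libraries each. Per the submitters' processing notes, tools named for the RNA were FastQC 0.11.5, Trimmomatic 0.36, HISAT2 2.1.0 and featureCounts of Subread 1.5.3, with build TAIR10; strand and multi-mapping settings are not given in the sources used here. The deposited values are raw counts per gene, which the authors had not normalized, and the deposited gene length was used only for levels per length in tables. All columns of the count table were mapped to a sample. For the H3K27me3 ChIP, the notes name BWA 0.7.15-r1142, SAMtools 1.6 and MACS2; the deposited peak lists, 1 per library, hold the authors' score, fold enrichment ratio and −log10 p and −log10 q values per peak, and input controls are not stated.

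Counts were tested with edgeR 4.0.16 in R 4.3.3: filterByExpr, TMM, 1 fit of all 12 RNA libraries by group, quasi-likelihood F test, two-sided, Benjamini-Hochberg adjustment over 20046 genes, threshold 0.05. Every adjusted p comes from that test. The common biological coefficient of variation was 0.0255. Replicates differed by more than sampling noise (chi-square per degree of freedom 1.46 to 1.87). A script was tested on simulated data.

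Symbols came from a reference table of TAIR10.1, which matched 31912 of 32678 IDs and was used to place genes against peaks; 4949 genes carried the mark in every Ctrl library as placed, and 3562 to 4378 after the coordinates were shifted on purpose. The 32 gene lists hold 435 genes, 356 of them tested; 13 entries were dropped because symbol and ID disagreed. The comparison and its lists were chosen with earlier results of these data known. Named genes are FIE, list members, the 20 largest log2 changes per direction (no overlap, at least 5 CPM in the higher group), the 10 largest CPM changes per direction, and the genes switched on or off; genes whose H3K27me3 is given were chosen among them after their values were seen. Promoter motifs and the FPKM table were not used here. Counting intervals (95%) and floors cover counting error only. Alternatives were DESeq2 1.42.0, RLE factors, glmTreat, no filter, fewer libraries, leaving out each replicate, a replicate block, and scaling by library size.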

Additional observations from a re-analysis of the deposited data

How the results depend on the processing

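The count of genes that rose at least 2-fold lay between 810 (the 6 libraries alone) and 1094 (no filter on low counts) in the fits against 0 other than scaling by library size, and that of genes that fell between 1001 and 1185. Tested against a 2-fold change with glmTreat, 499 rose and 616 fell. Scaling by library size only gave 10673 rises and 3674 falls of any size, and 1218 and 773 of at least 2-fold. Leaving out each replicate in turn gave 5393 to 5483 rises and 5683 to 5729 falls, or 917 to 938 and 1050 to 1076 of at least 2-fold. DESeq2 gave 5151 rises and 5320 falls, 958 and 1083 of at least 2-fold. FIE was called lower in every fit against 0, with a log2 fold change of -1.05 to -0.94 over the replicates left out and -0.79 with library-size scaling.

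The replicate numbers did not pair the samples (correlations of deviations of same-numbered libraries -0.0036, -0.043 and -0.019), and the replicate block gave 5844 rises and 5984 falls, 927 and 1051 of at least 2-fold, and a FIE log2 fold change of -0.98. In that check 0 of 3 amiR-fie-es libraries correlated best with their own number. Genes switched on numbered 34 and off 41 with a low limit of 0.2 CPM, and 13 and 5 with a high limit of 2 CPM; over the replicates left out they numbered 18 to 26 and 18 to 25. The share of genes without a peak that rose at least 2-fold was 2.72% with 500 bp as the minimum and 2.63% with peaks of −log10 q of 5 or more, against 2.33%; wider classes of unmarked genes take in weakly marked ones by construction.

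Of 150 single genes named and tested, 139 were called. Of these, 134 kept direction and call in every fit against 0 that gave them an adjusted p. Single genes were not read under glmTreat. The exceptions were CYP707A1, MAH1 and STM, whose calls were lost with DESeq2 and with some replicates left out, SHR, whose call was lost with library-size scaling (-0.06), and SCR, which that scaling turned from lower to higher (0.086). The causes were not tested. MAH1 ran from 1.94 to 2.33 in the fits that left out a replicate and lost its call (Ctrl replicate 1 or 3, amiR-fie-es replicate 1).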

Other observations

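Some gene groups not described above held called changes in both directions. Of 13 tested salicylate defence genes (17 listed) 2 rose and 4 fell (median log2 fold change -0.03; 6 and 4 with library-size scaling). WRKY70, a factor that balances salicylate and jasmonate responses, stood at 34.2, 30.7 and 29.5 CPM in Ctrl and at 6.22, 5.80 and 5.11 CPM in amiR-fie-es (-2.46 ± 0.08, edgeR adjusted p = 2.7e-29), and CBP60G, an activator of salicylate synthesis, fell by 2.85 ± 0.16. PR5, a salicylate-induced defence protein, rose from a mean of 9.98 to 22.7 CPM, and PR1, the usual marker of this response, stayed near 0 in both groups (0.0727 and 0.0485 CPM). In GFP-FIE against Ctrl, WRKY70 was also lower (-1.41) and PR5 was slightly lower (-0.28).

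Of 15 tested genes of sugar starvation and senescence 7 rose and 7 fell (median -0.21). The list summed to 1243 to 1282 CPM per Ctrl library, 1624 to 1665 CPM in amiR-fie-es and 1674 to 1701 CPM in GFP-FIE. ASN1, an asparagine synthetase induced in the dark, stood at 124, 129 and 141 CPM in Ctrl and at 354, 351 and 340 CPM in amiR-fie-es (1.41 ± 0.03), and SEN1, another dark-induced gene, rose by 1.46 ± 0.04. SAG29, a sugar transporter of senescing leaves, fell from 88.4 to 14.8 CPM (-2.58 ± 0.04) and was at 17.3, 16.4 and 16.5 CPM in GFP-FIE. Of 7 tested heat shock genes 2 rose and 4 fell (median -0.31; 2 and 2 with library-size scaling). Of 18 small RNA genes 7 rose and 5 fell (median 0.03, or 10 and 2 with library-size scaling), beside 29.3% and 30% of all genes tested. AGO9, an Argonaute protein of the female germline, stood at 0.754, 0.589 and 0.727 CPM in Ctrl and at 4.54, 4.3 and 4.46 CPM in amiR-fie-es (2.68 ± 0.17), the only change of at least 2-fold among them.

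Precision is set by 3 libraries per group. Genes under about 1 CPM rest on few counts, list values depend on which members were listed, and an undeclared difference in oestradiol between the groups cannot be told apart from the silencing. Overlapping and antisense genes are uncertain because the strand setting is not stated.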
